A study of Homo sapiens with 4 samples.

Results

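The transcripts of 10 AP-1 and EGR immediate early genes were followed in SKOV3, a long-established ovarian cancer cell line of human origin, grown flat or as tumor spheroids. The members were FOS, FOSB, FOSL1, FOSL2, JUN, JUNB, JUND, ATF3, EGR1 and EGR2, and were picked out of the 19475 gene symbols of the table by symbol. Of the 10, 9 passed a filter of at least 1 FPKM in at least 2 libraries and were tested among 11964 genes. EGR2 did not pass it. FPKM is the number of sequenced tags on a transcript, scaled to its length and to the tags of the library. In the 4 libraries, 4 of the 9 tested genes, namely FOSL1, ATF3, FOSB and JUN, were called lower in the spheroids, compared with 9.45% of all tested genes. FOS, JUNB and JUND were at higher and FOSL2 and EGR1 at lower FPKM, by less than the fold change required for a call.

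The 4 libraries were made from mRNA of SKOV3 cells. The 2 TCP libraries came from cells on a tissue culture plate and were labelled day 0, and the 2 polyX libraries came from spheroids on a plate coated with polymer X, labelled day 8. The labels name no altered gene and no drug in either group. In the methods of the study, SKOV3 cells were kept with fetal bovine serum, whereas spheroids received serum replacement and were dissociated with accutase every 4 days. The labels give a single protocol with serum replacement for both groups. Substrate, time in culture and possibly serum and dissociation therefore changed together, and their parts in any difference cannot be told apart. The labels do not say whether the libraries of a group came from separate cultures, so that a p-value here measures only the spread between these libraries, which may be technical. In bulk RNA, fewer cells with a transcript and less of it in each cell cannot be told apart.

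AP-1 is a dimeric transcription factor in which a Jun protein pairs with another Jun protein, a Fos protein or an ATF relative. Immediate early genes are transcribed within minutes of a stimulus such as serum, growth factors, stress or adhesion, from transcription factors already present in the cell, and their messages are mostly short-lived. FOSL1 and FOSL2 encode the Fra proteins, which accumulate later and longer than FOS after stimulation. EGR1 and EGR2 are zinc finger factors driven largely by ERK signaling, SRF and the ternary complex factors, and are restrained by the NAB corepressors.

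The sequences just upstream of these genes were searched for elements known to bind factors of this kind. Promoters of the members other than FOSL1 were taken from RefSeq on GRCh38.p14, as 250 bases before each annotated start, which gave 12 promoters of 9 genes, since ATF3 and EGR2 have several. Letters were searched on both strands. The core TGACGT of the cyclic AMP response element was found in 6 of the 12 promoters, compared with 7.10% of 35116 promoters of the same length. These 6 belonged to 6 of the 9 genes. The full element TGACGTCA, which contains the core, was found in JUND alone, compared with 1.65%. In FOS, FOSB and FOSL2 the core began at positions -64, -60 and -66 relative to the start. The variant TGACATCA, bound by Jun and ATF2 in the JUN promoter, was found in JUN at positions -67 to -60 and in the first promoter of ATF3, compared with 2.37% of all promoters. That ATF3 promoter lies 43221 bases upstream of the start of the GENCODE transcript matched to the one whose values are used below. The JUN start of RefSeq lies 280 bases inside the GENCODE transcript matched to the one counted for JUN. CArG boxes, the sites of SRF, were found in EGR1, which held 2, and in the third promoter of EGR2, compared with 1.16% of all promoters. The EGR site GCGNGGGCG, with N for any base, was found in EGR1, compared with 8.41%. TGANTCA, a pattern wider than the classical AP-1 site, was found in none of the 12, compared with 6.57%. Such matches describe letters only. Elements outside these 250 bases were not searched, so a gene without a match here may still hold the element elsewhere. Below are the promoter of FOSB, which was called lower and holds the core, the promoter of JUND with the full element, and those of EGR1 and EGR2 with their CArG boxes. Capitals mark every match.
FOSB, chr19:45467746-45467995, plus strand: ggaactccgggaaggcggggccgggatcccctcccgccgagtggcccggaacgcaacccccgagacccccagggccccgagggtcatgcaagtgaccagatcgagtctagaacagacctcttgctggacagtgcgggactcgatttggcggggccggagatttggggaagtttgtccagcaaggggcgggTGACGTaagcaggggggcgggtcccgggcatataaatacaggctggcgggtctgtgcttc
JUND, chr19:18281623-18281872, minus strand: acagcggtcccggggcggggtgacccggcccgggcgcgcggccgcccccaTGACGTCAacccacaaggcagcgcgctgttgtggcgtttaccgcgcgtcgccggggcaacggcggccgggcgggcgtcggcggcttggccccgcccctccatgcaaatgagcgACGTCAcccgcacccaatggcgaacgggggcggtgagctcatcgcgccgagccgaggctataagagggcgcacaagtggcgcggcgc
EGR1, chr5:138465229-138465478, plus strand: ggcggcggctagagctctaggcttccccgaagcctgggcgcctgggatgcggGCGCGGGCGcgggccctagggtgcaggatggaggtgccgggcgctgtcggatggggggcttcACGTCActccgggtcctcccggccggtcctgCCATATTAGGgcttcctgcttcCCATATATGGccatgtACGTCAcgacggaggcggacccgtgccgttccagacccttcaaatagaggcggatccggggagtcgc
EGR2, chr10:62816367-62816616, minus strand: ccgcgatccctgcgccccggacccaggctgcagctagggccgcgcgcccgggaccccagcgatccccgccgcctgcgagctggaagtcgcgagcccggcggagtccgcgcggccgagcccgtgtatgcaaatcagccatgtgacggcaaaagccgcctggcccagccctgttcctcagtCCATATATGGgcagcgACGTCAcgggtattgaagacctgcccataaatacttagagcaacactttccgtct

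On TCP the members spanned a wide range of FPKM, and their order changed on polymer X. On TCP the order from high to low was EGR1, JUN, JUNB, FOSL1, FOSL2, FOS, JUND, FOSB, ATF3 and EGR2, with means from 287 to 0.114 FPKM. No neighbours in that order overlapped between their 2 libraries. On polymer X the order was EGR1, JUNB, JUN, FOS, JUND, FOSL2, FOSL1, FOSB, ATF3 and EGR2, with means from 229.8 to 0.582 FPKM. There FOS and JUND overlapped and the other neighbours did not. EGR1 lay above 99.0% of the tested genes in both groups.

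**Figure D1:**
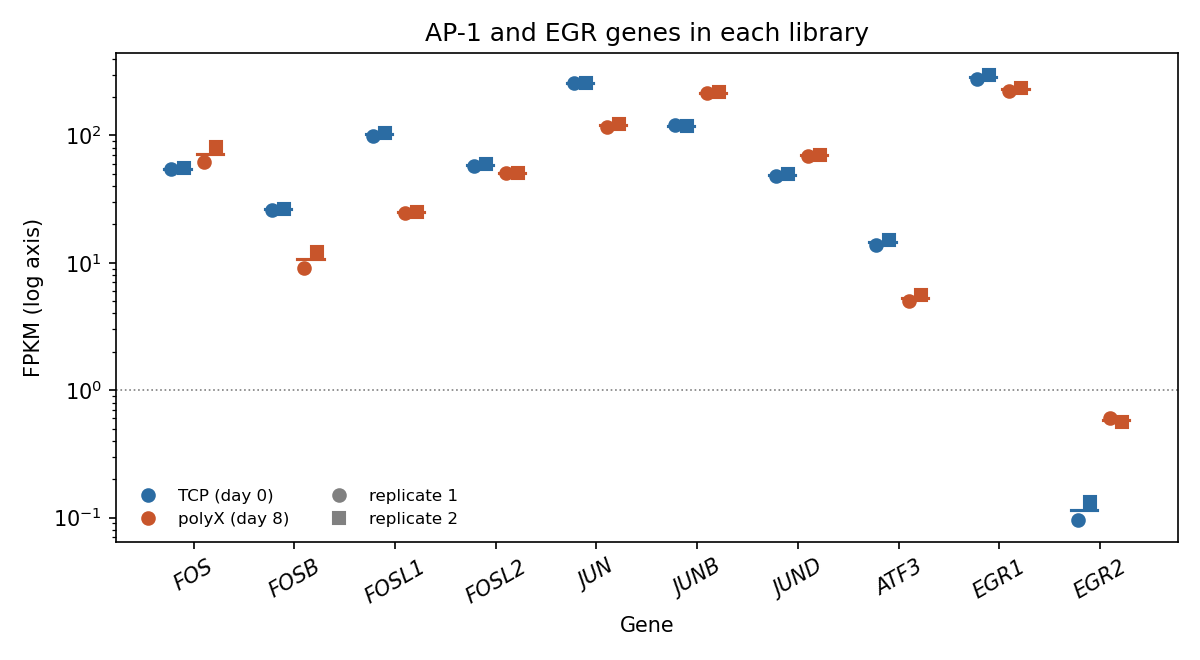
FPKM (log axis) of the 10 genes in the 2 TCP and 2 polyX libraries; circles and squares are replicates 1 and 2, short lines the group means, and the dotted line an FPKM of 1. FOSL1, FOSB, JUN and ATF3 sit lower in both polyX libraries, JUNB and JUND sit higher, and EGR2 lies under 1 in all 4.

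Differences were tested with limma on log2(FPKM + 1), a scale on which changes at low FPKM appear smaller than they are, with Benjamini-Hochberg adjustment over all tested genes. A gene was called at an adjusted p under 0.05 and a log2 fold change of at least 1 in either direction. By this rule limma called 0 of the 9 members higher, compared with 10.7% of all tested genes, and 4 lower, compared with 9.45%. Without the fold change minimum, 3 members were higher, compared with 37.4% of all genes, and 6 were lower, compared with 43.6%. At an unadjusted p under 0.05 the counts were also 3 and 6, where the shares of all genes are at least as large as these. In 9 of 9 members the groups did not overlap, which was also the case for 90.4% of all tested genes. The median log2 fold change was -0.32 over the 9 members and -0.06 over all tested genes. With 2 libraries against 2, an exact permutation test could not give a two-sided p under 0.333, so the p-values below depend on limma's pooling of the spread over genes.

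Among the Fos proteins, FOSL1 (NM_001300855, chr11:65659607-65667997, minus strand, coordinates here and for the genes that follow in hg19 as deposited), which encodes Fra-1, showed the largest fall of the 9 members. Its FPKM was 98.3 and 104.9 on TCP and 24.8 and 25.03 on polyX. Both spheroid libraries lay far under both TCP libraries, and the mean on TCP was 4.08 times that on polyX. The log2 fold change was -1.99 ± 0.06 (SE, n = 2 per group, limma adjusted p = 4.7e-09). Ranked by fall, FOSL1 was number 156 of the 11964 tested genes. The other 4 listed FOSL1 transcripts, which share tags with this one, had differences from -2.01 to -1.98.

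FOSB (NM_006732, chr19:45971253-45978437), an inducible Fos family member, also fell. Its FPKM was 26.1 and 26.6 on TCP and 9.06 and 12.3 on polyX, with no overlap, although the polyX libraries differed from each other by 1.35 times. The log2 fold change was -1.24 ± 0.11 (SE, limma adjusted p = 4.8e-06). FOSB is listed with 2 transcripts that differ by a stretch that the shorter one lacks. In the GENCODE models of GRCh38 that carry the same RefSeq identifiers, this stretch is 108 bases at chr19:45471194-45471301 on the plus strand, in exon 3 of the longer transcript and inside its coding sequence, where it adds 36 codons. It is shown because it alone tells the transcripts apart.
FOSB, stretch of the longer transcript: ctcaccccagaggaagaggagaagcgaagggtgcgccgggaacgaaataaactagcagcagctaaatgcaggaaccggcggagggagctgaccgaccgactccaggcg
From the difference in tags between the transcripts, this stretch held 166 and 187 tags on TCP and 51 and 82 on polyX. Per length its FPKM was 40.4 and 38.9 on TCP and 11.9 and 18.8 on polyX. The length used was 107 bases, the difference between the deposited transcript lengths. Relative to the shorter transcript the ratio was 1.57 and 1.48 on TCP and 1.33 and 1.56 on polyX. The stretch was thus lower in spheroids together with the rest of the gene, and the ratios of the groups overlapped.

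FOS (NM_005252, chr14:75745481-75748937), the founding Fos gene, and FOSL2 (NM_005253, chr2:28615779-28637516), which encodes Fra-2, were not called. FOS stood at 54.2 and 55.0 FPKM on TCP and 61.8 and 80.3 on polyX. The TCP libraries were nearly equal, whereas polyX replicate 2 was 1.30 times polyX replicate 1. The log2 difference was 0.36 ± 0.10 (SE, limma adjusted p = 0.0090). It was 0.18 without polyX replicate 2 and 0.55 without polyX replicate 1, so its size rested on which spheroid library was used. FOSL2 stood at 57.2 and 59.8 FPKM on TCP and 50.4 and 51.0 on polyX, a log2 difference of -0.20 ± 0.05 (SE, limma adjusted p = 0.0070). This became 0.12 (limma adjusted p = 0.077) with quantile normalization, and without TCP replicate 2 its adjusted p by limma was 0.070.

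Within the Fos family the share of FOSL1 was smaller and that of FOS larger on polyX, with each gene taken by its transcript of highest mean FPKM. The summed FPKM of the 4 genes was 241 ± 7.34 (SD, n = 2) on TCP and 157 ± 15.99 on polyX. FOSL1 made up 41.7% and 42.6% of it on TCP and 17.0% and 14.8% on polyX. FOS made up 23.0% and 22.3% on TCP and 42.3% and 47.6% on polyX. FOSL2 went from a mean of 24.3% to 32.4%. FOSB went from 10.9% to 6.74%, a direction that did not hold when all transcripts of a symbol were summed. On this measure FOSL1 held the largest share in both TCP libraries and FOS in both polyX libraries. The change of first place was lost when all listed transcripts of a symbol were summed, which counts the shared tags of the FOSL1 transcripts repeatedly. By that sum FOSL1 made up 48.0% and 44.1% on polyX and FOS 24.7% and 28.8%.

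The Jun genes moved in opposite directions. JUN (NM_002228, chr1:59246463-59249785), the prototype AP-1 subunit, stood at 256.7 and 255.9 FPKM on TCP and 115 and 124 on polyX. The TCP libraries lay within 1 FPKM of each other and the mean on TCP was 2.14 times that on polyX. The log2 fold change was -1.09 ± 0.06 (SE, n = 2 per group, limma adjusted p = 2.0e-07). With quantile normalization it was -0.77 and no longer reached the fold change minimum (limma adjusted p = 4.1e-06).

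JUNB (NM_002229, chr19:12902310-12904125), which can restrain JUN in some settings, stood at 120.1 and 119 FPKM on TCP and 215 and 219 on polyX. Its replicates were close in both groups, and the polyX mean was 1.82 times the TCP mean. The log2 difference was 0.85 ± 0.06 (SE, limma adjusted p = 6.0e-07), short of the fold change minimum, and 1.20 with quantile normalization, where JUNB was called higher. JUND (NM_001286968, chr19:18390504-18392466), known as the most constitutively expressed Jun gene, stood at 48.2 and 50.0 FPKM on TCP and 69.4 and 69.7 on polyX. All polyX values were above all TCP values, with a log2 difference of 0.49 ± 0.05 (SE, limma adjusted p = 2.0e-05).

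The total of the Jun family was close in both groups, at 425 ± 0.320 FPKM (SD, n = 2) on TCP and 406 ± 9.13 on polyX, while its parts changed places. JUN made up 60.4% and 60.3% of it on TCP and 28.9% and 30.02% on polyX. JUNB made up 28.3% and 27.9% on TCP and 53.7% and 53.1% on polyX. JUND went from a mean of 11.6% to 17.1%. JUN and JUNB thus exchanged the first place. The shares of both families are descriptions without a test.

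**Figure D2:**
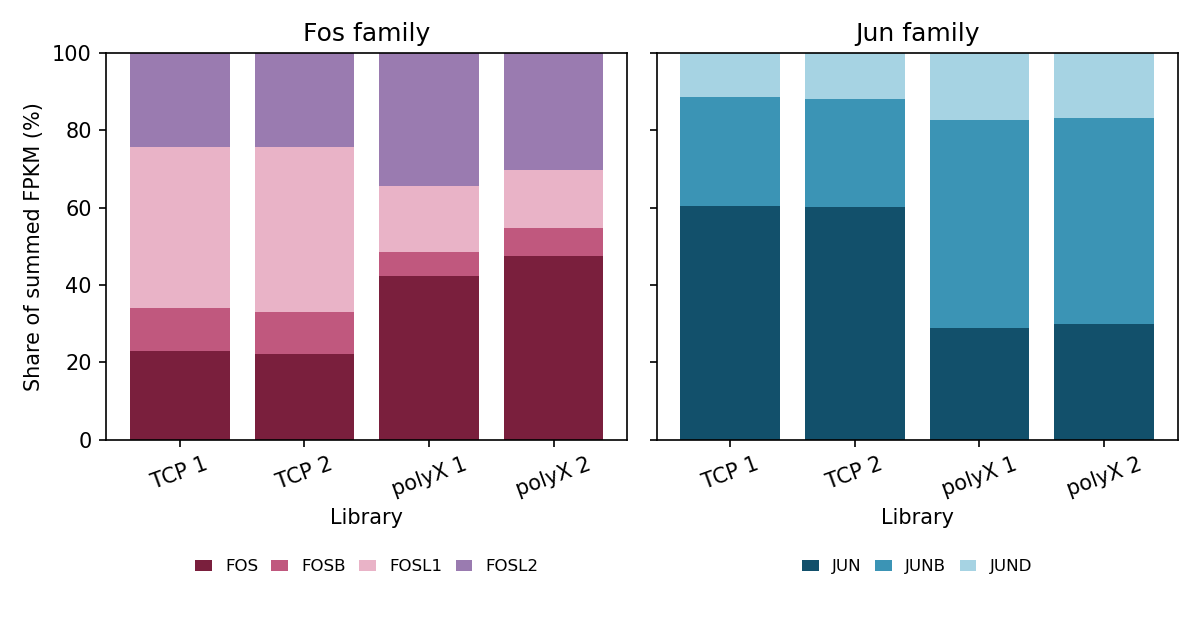
Share (%) of each gene in the summed FPKM of the Fos family (left) and the Jun family (right), each gene by its transcript of highest mean FPKM, with 1 stacked bar per library. FOSL1 goes from 42.2% to 15.9% and FOS from 22.7% to 45.0% between the means of TCP and polyX, and JUN goes from 60.3% to 29.5% and JUNB from 28.1% to 53.4%.

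ATF3 (NM_001206488, chr1:212781970-212794119), a stress-inducible factor that pairs with Jun proteins, fell. Its FPKM was 13.8 and 15.1 on TCP and 5.06 and 5.59 on polyX, with no overlap and a TCP mean 2.71 times the polyX mean. The log2 fold change was -1.29 ± 0.07 (SE, n = 2 per group, limma adjusted p = 2.6e-07). The other 5 listed ATF3 transcripts, which share tags with it, had differences from -1.28 to -1.25. No call on FOSB, FOSL1 or ATF3 was lost under any alternative with the same fold change minimum.

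EGR1 (NM_001964, chr5:137801181-137805004), which is induced by growth factors and mechanical stress, was the most abundant member in every library. Its FPKM was 279 and 296 on TCP and 224 and 236 on polyX. The groups did not overlap, but the log2 difference of -0.32 ± 0.06 (SE, limma adjusted p = 0.0012) was well under the fold change minimum. With quantile normalization it was -0.0062 (limma adjusted p = 0.945). By real-time PCR the paper reports the opposite direction, with EGR1 mRNA upregulated on polymer X relative to TCP. The cause of this disagreement was not tested. EGR2 (NM_001321037, chr10:64571756-64576140), the relative known from hindbrain and Schwann cell development, was at the other end of the range. Its FPKM was 0.096 and 0.132 on TCP and 0.600 and 0.563 on polyX, from 10 and 16 tags on TCP and 65 and 62 on polyX. Both polyX libraries were above both TCP libraries, with a ratio of means of 5.10 and a difference of 0.51 on the log2(FPKM + 1) scale. These are counts of few tags and EGR2 lay under the filter, so it has no test in the design above. When the FPKM of its 5 listed transcripts were summed, which counts shared tags repeatedly, it passed the filter and was called higher, with a log2 fold change of 1.31 (limma adjusted p = 1.2e-05). With each gene taken by its transcript of highest mean FPKM, EGR1 made up at least 99.7% of the FPKM of both genes in every library. With summed transcripts its share on polyX was 98.7% and 98.8%.

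**Figure D3:**
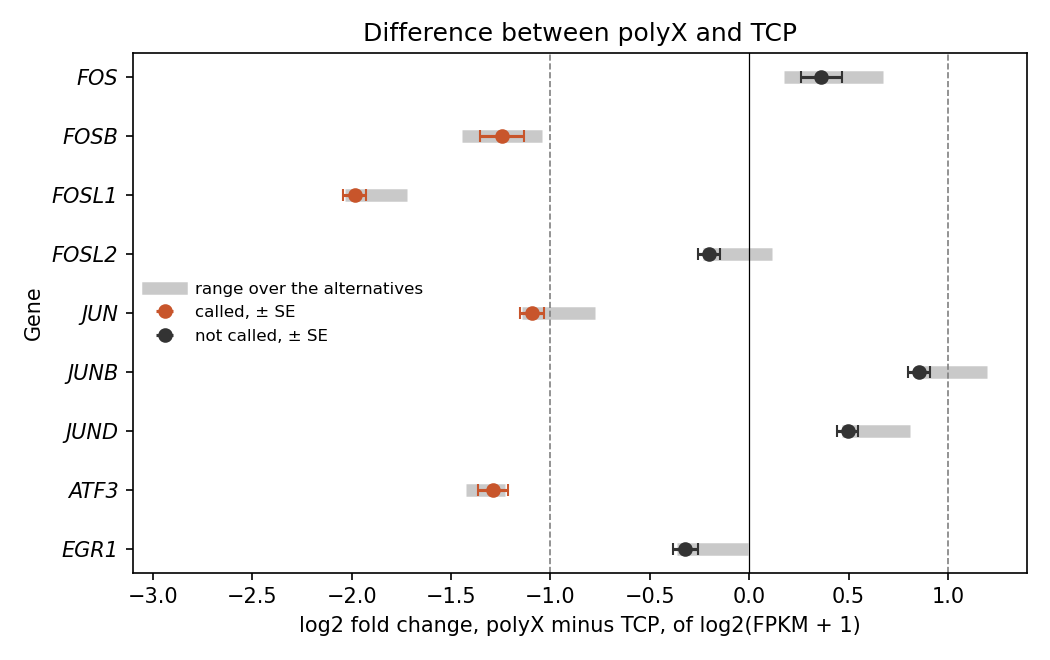
log2 fold change (polyX minus TCP, of log2(FPKM + 1)) of the 9 tested genes with its SE; grey bars span the 14 alternatives, and dashed lines mark the minimum of 1 in either direction. FOSL1, ATF3, FOSB and JUN lie to the left of -1, of which JUN crosses it in 1 alternative, and FOSL2 crosses 0.

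The members are short genes with messages of which several carry AU-rich elements, the motifs by which early response messages are marked for decay. The genomic span of all 10 was under the median of the tested genes, which was 27217.5 bases. JUN, JUNB and JUND had spans within 5 bases of the transcript length, so that they hold almost no intron sequence, which was the case for 2.13% of tested genes. The pentamer ATTTA was counted in the 3′ UTR of the matching GENCODE transcripts, which were found for 11366 of the tested genes. At least 1 was found in 65.1% of these genes. FOS held 5 in 806 bases, that is 6.20 per kilobase, JUNB 4, ATF3 2.47 and JUN 2.33, compared with a median of 1.46 over the tested genes. Nearer that median were EGR2 with 1.66, JUND with 1.47 and FOSB with 1.39 per kilobase, the last in 2166 bases. FOSL1 and EGR1 had 0 and 0.810 per kilobase. The longer nonamer was found in FOS and FOSL2, compared with 7.59% of tested genes. It stands in capitals in the following 30 bases of the FOS 3′ UTR on GRCh38, shown as the element FOS is known for.
FOS, chr14:75282060-75282089, plus strand: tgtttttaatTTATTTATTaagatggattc
The 4 genes called lower held 0 pentamers (FOSL1) or 3 (FOSB, JUN and ATF3). Of the 5 tested members not called, FOS held 5 and FOSL2 held 9 in 4864 bases, that is 1.85 per kilobase. JUNB held 2, and JUND and EGR1 held 1 each, so the counts of called and uncalled members overlapped.

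Other genes that work with the members were read from the same fit. The lists were written from general knowledge with earlier results of these data known, and are described by counts and medians only. In each list, as many genes were higher and as many lower at an unadjusted p under 0.05 by limma as at an adjusted one. Among 10 tested AP-1 partners and relatives, 1 was called higher and 1 lower, with a median of 0.06. CREB1, which binds cyclic AMP response elements, went from 19.7 and 18.7 to 7.59 and 9.61 FPKM (log2 fold change -1.08). Without polyX replicate 1 its value was -0.93 and the call was lost, as it was with quantile normalization, the longest transcript or the sum of transcripts. JDP2, a repressive Jun partner, stood at 7.72 and 7.62 FPKM on TCP and 3.57 and 3.53 on polyX and was not called (-0.93). JDP2 is named after its values were seen.

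Of 3 tested EGR relatives and NAB corepressors, 2 were called higher and 0 lower, with a median of 1.19. Without the fold change minimum, limma put the remaining gene, NAB1, lower. EGR3 stood at 0.673 and 0.724 FPKM on TCP and 4.04 and 4.96 on polyX, a log2 fold change of 1.69 ± 0.10 (SE, limma adjusted p = 2.5e-07). NAB2, a corepressor that EGR proteins themselves induce, stood at 9.04 and 8.79 FPKM on TCP and 21.9 and 21.2 on polyX (1.19 ± 0.06, limma adjusted p = 1.1e-07). NAB1 stood at 28.97 and 31.6 FPKM on TCP and 23.4 and 22.2 on polyX (-0.39). EGR2, EGR3 and NAB2 were thus at higher FPKM in both polyX libraries while EGR1 was at lower FPKM.

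Of 41 tested immediate early genes outside the members, 7 were called higher and 12 lower, with a median of -0.18. The largest falls were in CTGF (49.5 and 49.7 to 0.845 and 0.652 FPKM, log2 fold change -4.86), CYR61 (154 and 157 to 4.62 and 4.74 FPKM, -4.78), both matricellular proteins, and the kinase PLK2 (183 and 179 to 11.5 and 11.4 FPKM, -3.87). The largest rises were in the antiproliferative genes BTG1 (2.51) and BTG2 (2.05) and in IER5L (2.20). Immediate early genes outside AP-1 and EGR were thus found at both ends, with no common direction.

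Upstream of the members, a list of 7 tested genes held SRF, the ternary complex factors ELK1, ELK3 and ELK4, and MKL1, MKL2 and FHL2. None was called in either direction by limma, with a median of -0.28. Set against the adjusted p alone, 1 was higher, ELK4 (0.30). The 4 lower genes were SRF, MKL1 (-0.93), MKL2 (-0.28) and FHL2 (-0.87). ELK1 (0.03) and ELK3 (0.004) were neither, so no ternary complex factor was lower. SRF stood at 14.0 and 14.9 FPKM on TCP and 9.16 and 9.57 on polyX (-0.58). Of 22 tested genes of the MAP kinase cascades, MAP2K6, a p38 activator, was called higher (1.68), and the median was -0.11. Of 15 tested genes that report ERK output, 8 were called higher and 1 lower, with a median of 1.08. The phosphatase DUSP6 went from 2.50 and 2.25 to 22.3 and 21.6 FPKM (log2 fold change 2.77), ETV4 from 1.67 and 1.79 to 12.2 and 12.0 FPKM (2.26), and ETV5 from 2.96 and 2.83 to 11.7 and 12.0 FPKM (1.72). The receptor EPHA2 was the gene called lower (-1.68).

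Downstream, the listed AP-1 target genes did not share a direction, with 8 of 23 tested called higher and 7 lower and a median of 0.05. The collagenase MMP1 went from 22.6 and 20.02 to 899 and 888 FPKM (log2 fold change 5.33), VEGFA from 66.3 and 65.4 to 875 and 991 FPKM (3.80), and the proteoglycan DCN rose by 2.93. The receptor AXL went from 76.3 and 80.9 to 7.06 and 7.81 FPKM (-3.24) and the cytokine IL6 from 67.3 and 65.3 to 6.77 and 5.90 FPKM (-3.20). Of 18 tested EGR1 target genes, 11 were called higher and 4 lower, with a median of 1.13. GDF15 went from 0.280 and 0.638 to 37.97 and 35.5 FPKM (4.70) and ALOX5 rose by 3.74. THBS1 went from 116 and 124 to 0.765 and 0.620 FPKM (-6.16), and HBEGF and SPHK1 had log2 fold changes of -1.85 and -1.70. Some genes, such as VEGFA and HBEGF, stand in several lists, and 11 tested genes were in more than 1.

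ATF3 fell while 3 stress genes listed with it rose. Of 11 tested genes of the ATF4 and ATF3 stress response, 3 were called higher and 0 lower, with a median of 0.55. By the adjusted p of limma alone, 7 were higher and 2 lower. DDIT4 rose from 82.2 and 85.1 to 415 and 397 FPKM (log2 fold change 2.26), DDIT3, which encodes CHOP, from 21.8 and 21.1 to 54.5 and 57.3 FPKM (1.34), and TRIB3 from 7.57 and 7.65 to 20.3 and 19.6 FPKM (1.28). Of 11 heat shock genes, which like immediate early genes can respond to handling of cells, 0 were called higher and 5 lower, with a median of -0.81, and limma placed all 11 lower when no fold change minimum was set. HSP90AA1 went from 954 and 976 to 242 and 207 FPKM (-2.11). Of 14 genes of the decay of AU-rich messages, 0 were called higher and 2 lower, KHSRP (-1.26) and HNRNPD (-1.16), both lost with quantile normalization (-0.95 and -0.81). By the adjusted p of limma alone, 5 were higher and 8 lower. Their part in the levels of the members was not tested.

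**Figure D4:**
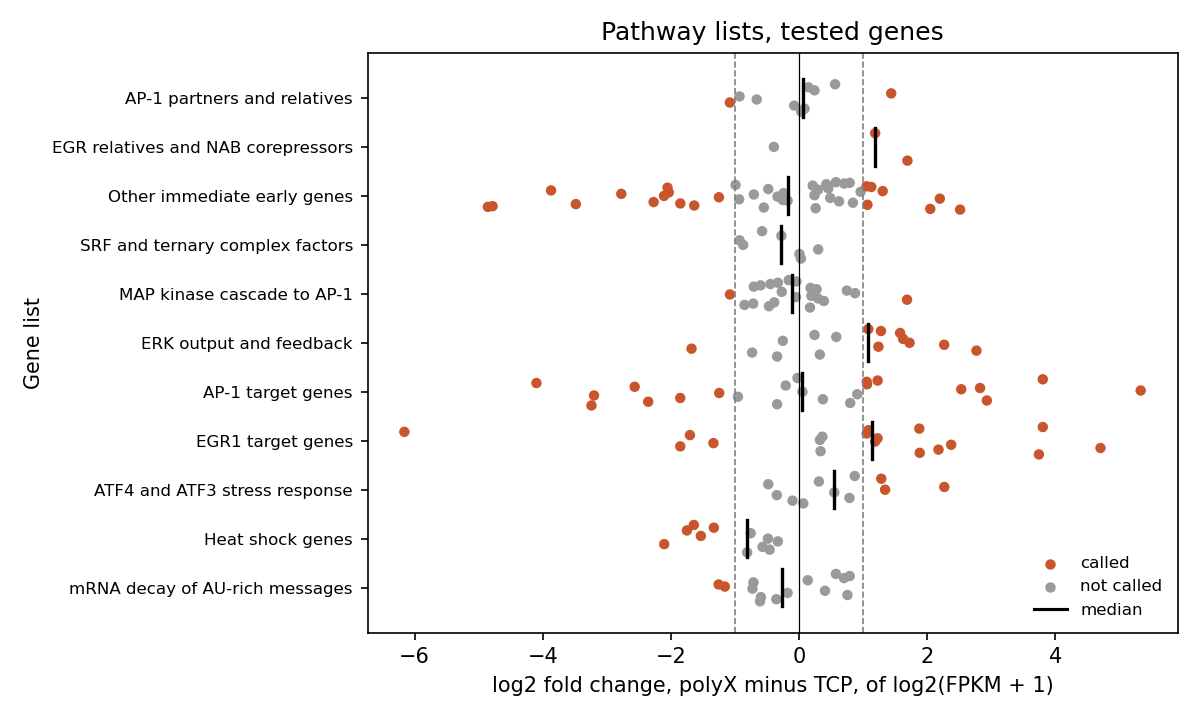
log2 fold change (polyX minus TCP, of log2(FPKM + 1)) of each tested gene of the 11 lists, 1 point per gene, in orange where called, with the list's median as a black line; a gene in several lists is drawn in each. ERK output, EGR1 target and EGR relative lists have medians of 1.08, 1.13 and 1.19, and heat shock genes have -0.81.

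For FOSL1, the member with the largest change, and for JUN, the genes most alike over the 4 libraries were found by the Euclidean distance between values of log2(FPKM + 1) centred on each gene's mean. For FOSL1 these were DOCK2 (distance 0.028), KIF11 (0.034) and CENPE (0.035). For JUN they were BAMBI (0.037), SEC14L1 (0.037) and CASZ1 (0.040). KIF11 stood at 17.2 and 18.2 FPKM on TCP and 3.68 and 3.63 on polyX. With 4 libraries in 2 groups, such a likeness says little more than that a gene has the same fold change.

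As a check of the cell type, KRT8 stood at 262 and 269 FPKM on TCP and 146 and 143 on polyX, and ERBB2, which SKOV3 carries in amplified form, at 198 and 206 on TCP and 913 and 860 on polyX. Of 7 tested SKOV3 epithelial cancer markers, limma called 3 higher and 0 lower, and put 4 higher and 3 lower without the fold change minimum. KRT18, PAX8 and KRT7 had TCP means of 122, 49.7 and 7.95 FPKM and polyX means of 89.5, 105 and 4.30. MSLN was low, at 1.55 and 0.818 FPKM on TCP and 2.24 and 2.06 on polyX. WFDC2 was at 0.093 and 0.040 FPKM on TCP and 8.59 and 7.755 on polyX. KRT19 did not pass the filter, at 0.338 and 0.441 FPKM on TCP and 0.734 and 0.655 on polyX. Of 11 markers of other cell types, 2 passed the filter, CD68 (log2 fold change 1.29) and ACTA2 (1.19), and both were called higher, ACTA2 not with quantile normalization (0.79). The 11 markers summed to between 17.8 and 18.1 FPKM on TCP and between 46.1 and 49.1 on polyX, most of it CD68. CD3E, HBB and HBA1 were listed at 0 in all 4 libraries. PTPRC was at 0.005 and 0 FPKM on TCP and 0.468 and 0.530 on polyX, and PECAM1 at 0 and 0 on TCP and 0.573 and 0.458 on polyX. The part of these differences in the values of the members was not tested. Depth was similar in both groups, since the FPKM values had been scaled to between 38403000 and 44918000 tags per library, and replicates correlated at 0.998 on TCP and 0.997 on polyX over the tested genes.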

How the data were processed

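RNA-seq was measured in 2 TCP and 2 polyX libraries of SKOV3. The authors deposited FPKM values for 50078 RefSeq transcripts of hg19, made with HOMER from tags on exons of both strands and rounded to 3 decimals. The submitters' processing notes also name STAR 2.4.0 and DESeq. Counting without strand lets overlapping genes share tags, but no other symbol overlapped a member. Groups were taken from the sample titles, and the paper's statistics section speaks of a minimum of 3 replicates, whereas each group here has 2 libraries. In each library all low values tested, that is 4157 to 4350 of them, lay within 0.1 of whole tags, which gave the tags scaled to.

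Each symbol was represented by its transcript of highest mean FPKM. The fit was made in R 4.3.3 by limma 3.58.1 on log2(FPKM + 1) (mean-variance trend, Benjamini-Hochberg over the 11964 genes with at least 1 FPKM in at least 2 libraries), without a replicate block. The procedure was tested on simulated data. The alternatives were a pseudocount of 0.1, quantile normalization, no filter, a stricter filter (mean FPKM at or above 5), median scaling, the replicate block, summed or longest transcripts, no variance trend, other fold change minimums, and each library left out. No filter together with a pseudocount of 0.1, and the alternatives for the lists, were added after seeing the data. The members and lists were chosen with earlier results of these data known. The text names every member, NAB1, NAB2, SRF, EGR3, up to 3 called genes in each direction per list and the 3 genes nearest to FOSL1 and JUN. Marker genes, JDP2 and the remaining genes of the SRF list are named beyond that. A few list genes that this rule would name are not reported here. Promoters came from RefSeq (GRCh38.p14) and transcript sequences from GENCODE v29 (GRCh38), matched by symbol or RefSeq identifier and not by coordinates. Plots were drawn with matplotlib 3.10.9.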

Additional observations from a re-analysis of the deposited data

How the results depend on the processing

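The 4 calls on members held under every alternative with a fold change minimum of 1 except quantile normalization, where JUN lost its call (-0.77). The count of members called higher went from 0 to 1 with quantile normalization (JUNB), with the sum of transcripts (EGR2) and with no filter and a pseudocount of 0.1 (EGR2, log2 fold change 1.68), and to 3 with no fold change minimum. At a minimum of 2, 0 members were called lower. Quantile normalization also turned FOSL2 from -0.20 to 0.12, put EGR1 at -0.0062 and FOS at 0.67, and took the call from 10 of the 75 called genes of the lists and marker lists together. The adjusted p of FOS by limma was 0.056 without a filter and 0.052 with no filter and a pseudocount of 0.1. The cause of these shifts was not tested.

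Over all genes, 1285 were called higher and 1131 lower. The count higher was 702 with a mean FPKM of at least 5, where 8166 genes were tested, 2627 with no filter and a pseudocount of 0.1, where 16883 were, 4477 with no fold change minimum and 281 at a minimum of 2, and the count lower was 5212 and 150 under the last pair. For the genes of the lists without the markers, 76 were higher and 74 lower with no fold change minimum and 15 and 16 at a minimum of 2, against 38 and 32. With summed transcripts the share of FOSL1 in the Fos family differed by -29.0 percentage points in place of -26.2, that of JUN by -28.9 in place of -30.9, and that of FOSB by 0.097 in place of -4.20.

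Leaving out each library in turn gave 1289 to 1325 genes higher, 1053 to 1234 lower, 0 members higher, 4 members lower, and 38 to 39 list genes higher and 32 to 33 lower. There a lone library was assumed to vary like the other group. The log2 fold change of FOSB ranged from -1.44 to -1.04. In the labels, same-numbered replicates share only a number. Their deviations correlated at 0.093 over genes, which with 2 libraries per group cannot settle whether they were paired. The replicate block gave 1285 genes higher and 1131 lower, 0 members higher and 4 lower. Calls higher made up 53.2% of all calls, 56.3% with median scaling and 53.7% with quantile normalization. Depth limits EGR2, with 10 to 65 tags per library.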
